A study of Mus musculus with 9 samples.

Results

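The genes described here are 36 cell cycle and mitosis genes, measured in whole mouse corneas by bulk RNA sequencing. They are a list of names, 13 genes of DNA replication (S phase) and 23 genes of mitosis and the division of the cell, taken from a count table of 34142 genes. All 36 were found in the table and passed the filter on low counts in every fit. The S-phase and the mitotic genes are given apart. Corneas of Aire knockout mice treated with PBS (KO + PBS, n = 4) carry the knockout and the treatment. Corneas of untreated Aire knockout mice (KO, n = 2) carry the knockout alone, and untreated wild-type corneas (WT, n = 3) carry neither. Aire is a transcription factor of the thymus through which developing T cells learn to tolerate the proteins of other tissues. The design text equates the knockout with dry eye disease, and PBS is a salt solution. The titles give 5 wk for the untreated and 24 hr for the PBS libraries, whereas the design text gives day 7 of the treatment and an age of 6 wk, and this difference could not be settled from the labels. A Lacripep-treated group named in the design was not analysed here. The strain, the deleted part of Aire, and whether a replicate is 1 mouse or a pool are not given in the labels.

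The corneal epithelium is renewed throughout life by dividing cells of its basal layer and of the limbus at the corneal rim, while keratocytes of the stroma and cells of the endothelium rarely divide in an undisturbed mouse cornea. Genes needed for DNA synthesis are switched on as a cell enters S phase, largely by E2F transcription factors. Genes needed for mitosis are switched on later, in G2, by the MuvB complex together with B-Myb and FOXM1. A CHR element and CCAAT boxes close to the start of the gene take part in this. In whole tissue, the mRNA level of either set follows the share of cells that are cycling as well as the amount of RNA in each of them, and in bulk libraries these cannot be told apart.

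Library totals were 22944576 to 27116073 counts in KO + PBS, 25356754 and 68534734 in KO, and 38331620 to 104518572 in WT, and the 36 genes had at least 32 counts in every library (Kif20a in KO replicate 2). The counts of the PBS and of the untreated libraries differed in kind. Processed pseudogenes took 0.289 to 0.361% of the counts in KO + PBS, against 17.6 to 22.1% in KO and WT. Mitochondrial genes took 0.797, 6.13, 0.924 and 0.882% in KO + PBS replicates 1 to 4 and had no count in any KO or WT library. Treatment and kind of library therefore cannot be told apart in any comparison of KO + PBS with the other groups. Krt12, the keratin of corneal epithelium, stood at 3749 to 6018 CPM (counts scaled to library size, with TMM factors over the 9 libraries) in KO + PBS, 22435 and 38293 CPM in KO, and 27791 to 33176 CPM in WT, so that this marker of the labelled tissue was abundant in every library. Kera, the keratocan of stromal keratocytes, stood at 40.6 to 185 CPM in KO + PBS, 24.3 and 23.1 CPM in KO, and 438 to 502 CPM in WT. Aire itself had 7, 9, 7 and 2 counts in KO + PBS, 0 and 3 counts in KO, and 4, 16 and 3 counts in WT, too few for a check of the knockout.

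The stretches of sequence just upstream of these genes are shown first, because the motifs named above were found in different shares of the S-phase and the mitotic genes. Windows of 300 bases, 250 before and 50 after the start of the gene, were taken from RefSeq (build GRCm38.p6) and were found for 29 of the 36 genes, and for 27025 genes in all. The CHR was searched as TTTGAA or TTTAAA, the CCAAT box as CCAAT, and the E2F site as GCGGGAA or GCGCGAA, each on both strands. A CHR was present in 16 of 18 mitotic windows (88.9%), in 3 of 11 S-phase windows (27.3%) and in 27.8% of all genes. A CCAAT box was present in 16 of 18 mitotic windows (88.9%), in 8 of 11 S-phase windows (72.7%) and in 37.9% of all genes. An E2F site was present in 1 of 18 mitotic windows (5.56%), in 7 of 11 S-phase windows (63.6%) and in 6.06% of all genes. In the last 150 bases of the windows, a CHR was present in 15 of 18 mitotic genes (83.3%), 2 of 11 S-phase genes (18.2%) and 12.9% of all genes. Printed here are Prc1 and Cenpf, mitotic genes with large differences in KO + PBS, Cdk1, the 1 mitotic gene with an E2F match, and Mcm6 and Mcm7, for S phase. Each runs from 150 bases before to 30 bases after the start, with motif matches that lie whole within it in capitals; the E2F match of Mcm7 overlaps a CCAAT box. They lie at chr7:80294301-80294480 (plus strand), chr1:189688057-189688236, chr10:69352883-69353062, chr1:128359676-128359855 and chr5:138171854-138172033 (all minus strand).
Prc1: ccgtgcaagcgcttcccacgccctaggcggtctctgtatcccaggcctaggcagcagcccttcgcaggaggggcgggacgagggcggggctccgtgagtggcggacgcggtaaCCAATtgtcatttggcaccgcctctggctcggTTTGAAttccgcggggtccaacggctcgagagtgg
Cenpf: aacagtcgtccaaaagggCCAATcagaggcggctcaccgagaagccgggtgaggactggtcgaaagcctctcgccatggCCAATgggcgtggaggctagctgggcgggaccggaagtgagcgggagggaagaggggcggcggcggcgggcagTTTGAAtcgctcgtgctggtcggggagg
Cdk1: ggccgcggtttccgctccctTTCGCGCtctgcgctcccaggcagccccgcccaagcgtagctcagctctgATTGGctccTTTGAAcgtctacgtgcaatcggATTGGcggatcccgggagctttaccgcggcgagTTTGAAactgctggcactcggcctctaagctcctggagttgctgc
Mcm6: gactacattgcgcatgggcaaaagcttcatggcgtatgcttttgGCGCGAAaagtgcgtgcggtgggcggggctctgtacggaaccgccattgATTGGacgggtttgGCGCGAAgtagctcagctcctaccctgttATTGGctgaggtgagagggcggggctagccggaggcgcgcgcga
Mcm7: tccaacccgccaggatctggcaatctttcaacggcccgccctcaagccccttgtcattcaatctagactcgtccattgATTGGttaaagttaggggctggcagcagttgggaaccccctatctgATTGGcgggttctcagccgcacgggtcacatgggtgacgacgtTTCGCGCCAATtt
A match to these letters is a description of the window and not evidence that the factor binds there.

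**Figure D1:**
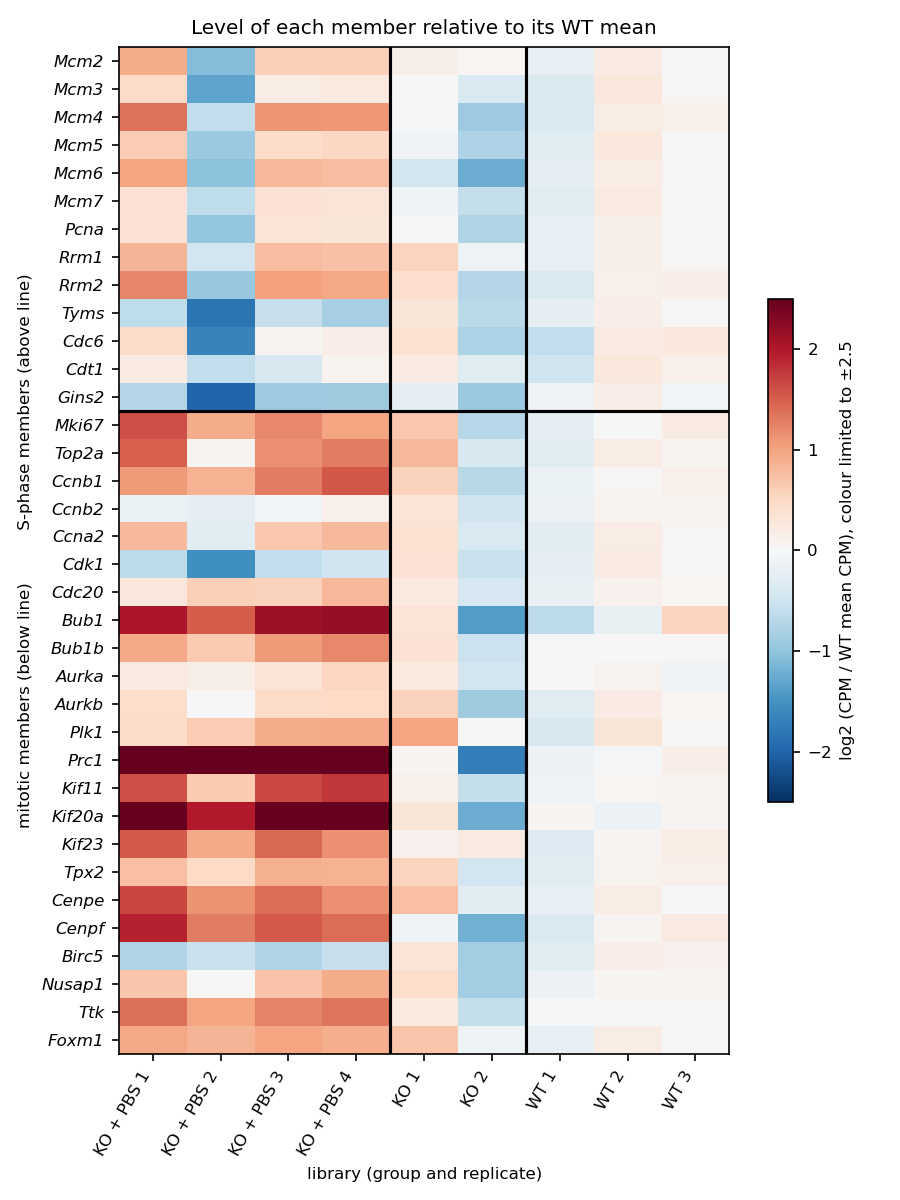
Each row is 1 of the 36 genes and each column 1 library, with KO + PBS at the left, then KO, then WT. Colour gives log2 of the gene's CPM over its WT mean, limited to ±2.5, with S-phase genes above the line and mitotic genes below it. KO + PBS replicate 2 is paler or bluer than its group in the S-phase rows, and KO replicate 2 is bluer than KO replicate 1 in all rows other than Kif23.

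The first comparison asked whether untreated knockout corneas differed from wild-type corneas in these genes. None of the 36 passed the test, neither among the 13 S-phase nor among the 23 mitotic genes. Over all 18006 genes tested, 20.4% were called, which means a Benjamini-Hochberg adjusted p under 0.05, 11.5% as higher and 8.99% as lower in KO. Of the 36, 2 S-phase genes and no mitotic gene had an unadjusted p under 0.05, and DESeq2 called 1 gene, Mcm6, as lower. The median log2 fold change was -0.16 for the S-phase genes and -0.02 for the mitotic genes, against -0.02 over all genes tested. Of the 36 estimates, 12 were above 0 and 24 below. A missed threshold does not show equal levels, and the intervals are therefore given. The 95% interval of the fold change lay within 2-fold in either direction for 22 of 36 genes, 9 of 13 in S phase and 13 of 23 in mitosis, against 54.6% of all genes. None of the 36 had both KO libraries above all WT libraries (25.2% of all genes did), and 2 had both below (27% of all genes did).

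Those 2 belong to the replicative helicase, the machine that unwinds DNA at the fork. Mcm6, a subunit of its MCM ring, stood at 32.9 and 19.1 CPM in KO, against 38.1, 51.1 and 45.6 CPM in WT. Both KO libraries lay below every WT library. The log2 fold change was -0.79 ± 0.24 (SE), with a 95% interval of -1.37 to -0.21 and an adjusted p of 0.0643 in edgeR's quasi-likelihood test. Gins2, a subunit of the GINS complex that activates the ring, stood at 16.4 and 10.1 CPM in KO, against 17.7, 21.7 and 18.3 CPM in WT. Its log2 fold change was -0.54 ± 0.22, with an interval of -1.07 to -0.02 and an adjusted p of 0.129. On 67.3% of its exon bases Gins2 overlaps Gse1 on the opposite strand. The strand setting of the counting is not stated, so reads of the pair may not have been told apart.

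For the rest of S phase the KO and WT libraries overlapped. Mcm4, the next lowest, stood at 27.0 and 14.6 CPM in KO, against 21.1, 30.8 and 29.96 CPM in WT (log2 fold change -0.40 ± 0.29, adjusted p = 0.377). At the other end was Rrm1, the large subunit of ribonucleotide reductase, which makes the deoxynucleotides for DNA. It had 58.2 and 35.9 CPM in KO, against 34.1, 43.6 and 40.4 CPM in WT (0.26 ± 0.21, adjusted p = 0.427). Mcm2 had 43.4 and 40.4 CPM in KO, against 33.8, 45.2 and 38.0 CPM in WT (0.11 ± 0.14, adjusted p = 0.618). Its 2 KO libraries were the closest to each other among the S-phase genes, and both lay inside the WT range. Cdt1, which loads the MCM ring onto DNA, had 21.9 and 15.6 CPM in KO, against 13.5, 23.1 and 20.7 CPM in WT (-0.03 ± 0.26, adjusted p = 0.951). The other 7, Mcm3, Mcm5, Mcm7, Pcna (the sliding clamp of the polymerases), Rrm2, Tyms (thymidylate synthase) and Cdc6 (a loader of the MCM ring), had estimates between -0.39 and -0.05. Pcna counts come with a further limit, since its pseudogene Pcna-ps2 took 883 and 1075 counts in KO and 1184, 3898 and 1749 counts in WT, against 5 to 11 counts in KO + PBS libraries.

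Among the mitotic genes the lowest estimate was that of Prc1, which bundles the microtubules of the central spindle before the cell is cut. It had 3.31 and 0.947 CPM in KO, against 2.85, 3.04 and 3.54 CPM in WT. KO replicate 1 lay inside the WT range and KO replicate 2 below it, and the log2 fold change was -0.61 ± 0.50 (adjusted p = 0.431). Cenpf, a large protein of the outer kinetochore, had 7.34 and 3.44 CPM in KO, against 6.18, 8.33 and 9.30 CPM in WT (-0.58 ± 0.35, adjusted p = 0.283). Bub1, a kinase of the spindle checkpoint, had 3.07 and 0.927 CPM in KO, against 1.55, 2.16 and 3.60 CPM in WT (-0.33 ± 0.58, adjusted p = 0.727). In both genes KO replicate 2 was the lowest of the 5 untreated libraries and KO replicate 1 lay inside the WT range.

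The highest estimate was that of Plk1, a kinase that drives entry into and passage through mitosis. It had 21.1 and 10.7 CPM in KO, against 7.99, 13.02 and 10.8 CPM in WT. KO replicate 1 was above every WT library, KO replicate 2 was among them, and the log2 fold change was 0.58 ± 0.32 (adjusted p = 0.248). Foxm1, the transcription factor named above, had 16.3 and 9.39 CPM in KO, against 8.82, 11.5 and 10.1 CPM in WT (0.34 ± 0.25, adjusted p = 0.373). Top2a, the topoisomerase that untangles sister DNA, had 69.9 and 30.2 CPM in KO, against 32.3, 45.9 and 42.1 CPM in WT (0.32 ± 0.36, adjusted p = 0.575). Here KO replicate 1 was the highest and KO replicate 2 the lowest of the 5 libraries. Mki67, which coats mitotic chromosomes and is the antigen of the Ki-67 stain, had 56.0 and 21.4 CPM in KO, against 29.7, 34.9 and 40.1 CPM in WT (0.15 ± 0.40, adjusted p = 0.830). The remaining 16 mitotic estimates lay between -0.31 and 0.31.

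That placing of the 2 KO libraries on either side of WT was shared by most of the mitotic genes. KO replicate 1 was above KO replicate 2 in 35 of 36 genes, in 13 of 13 of S phase and 22 of 23 of mitosis, with Kif23 as the exception, against 50.03% of all genes. It was at once the highest, and KO replicate 2 the lowest, of the 5 untreated libraries in 17 of 23 mitotic genes and 3 of 13 S-phase genes, against 6.65% of all genes. The median log2 ratio of KO replicate 1 over KO replicate 2 was 1.03 for the mitotic genes, 0.71 for the S-phase genes and 0.01 for all genes. The largest ratios were those of Prc1 (3.49-fold), Bub1 (3.31-fold) and Kif20a (2.91-fold). In S phase the KO replicate 1 library was mostly inside the WT range, being the highest of the 5 in 4 of 13 genes, while KO replicate 2 was the lowest in 10 of 13. A smaller split ran through WT, where replicate 1 was the lowest of the 3 in 34 of 36 genes (35.9% of all genes).

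The call therefore depended on which KO library was used. With KO replicate 2 alone against WT, which assumes that the lone library varies like those of WT, 8 S-phase and 13 mitotic genes were called lower and none higher, while 16.9% of all genes tested were called lower. The S-phase genes were Mcm4, Mcm5, Mcm6, Mcm7, Pcna, Rrm2, Tyms and Gins2. With KO replicate 1 alone, 1 S-phase gene (Rrm1, log2 fold change 0.57) and 7 mitotic genes were called higher and none lower, while 15% of all genes tested were called higher. The 7 were Mki67, Top2a, Ccnb1, Plk1, Tpx2, Cenpe and Foxm1, between 0.55 (Tpx2) and 0.99 (Plk1). Mki67 and Ccnb1, the cyclin that activates CDK1 for mitosis, were called in both, on opposite sides of WT. The log2 fold change of Mki67 was 0.68 (adjusted p = 0.00915) with KO replicate 1 and -0.72 (adjusted p = 0.00757) with KO replicate 2. For Ccnb1 the values were 0.57 (adjusted p = 0.0202) and -0.71 (adjusted p = 0.00977).

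**Figure D2:**
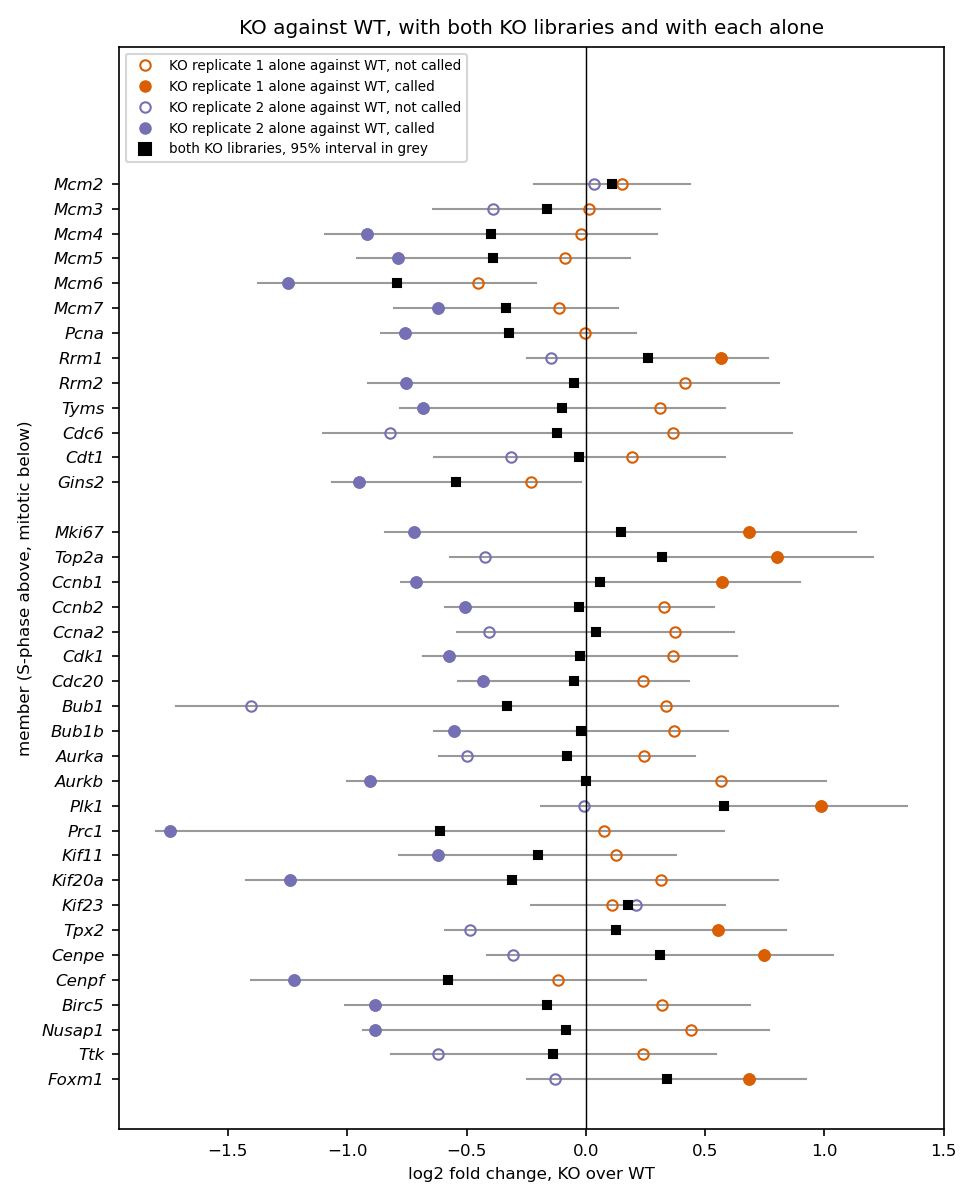
Log2 fold change of KO over WT for each gene. Black squares with grey 95% intervals use both KO libraries, orange circles KO replicate 1 alone and violet circles KO replicate 2 alone, filled where called; the S-phase genes are above and the mitotic genes below. The orange and violet circles lie on opposite sides of 0 in most mitotic rows, and Kif23 is the row where their order turns.

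Other genes also separated the 2 KO libraries. Krt16, a keratin of stressed and hyperproliferative epidermis, stood at 4520 and 475 CPM in KO replicates 1 and 2, against 24.2, 37.7 and 28.8 CPM in WT. Krt14, a keratin of basal epithelial cells, stood at 5295 and 2383 CPM in KO, against 605, 851 and 787 CPM in WT. The summed level of 8 neutrophil markers was 123 and 27.7 CPM in KO replicates 1 and 2, against 6.11 to 13.6 CPM in WT. The summed level of 12 T cell markers was 44.5 and 27.0 CPM in KO, against 2.70 to 4.72 CPM in WT, and that of 10 epithelial markers 72928 and 108849 CPM in KO, against 87871 to 101677 CPM in WT. Gland markers ran the other way, at 136 and 1729 CPM in KO replicates 1 and 2, against 25.7 to 75.2 CPM in WT. KO replicate 1 was the library with more of the cell division genes. It had more Krt16 and Krt14, a higher neutrophil marker sum and lower gland and epithelial marker sums than KO replicate 2. Krt14 is among the 10 epithelial markers and ran against their sum. Between the groups, 11 of 11 T cell markers and 4 of 6 neutrophil markers tested rose in KO, 9 of 10 stromal and 7 of 8 corneal endothelial markers fell, and 2 of 10 epithelial markers rose. The part of these cells in the result was not tested.

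Lists of related genes that share the pathway but are not among the 36 gave the same picture of few calls. None of 35 other replication genes was called between KO and WT (median log2 fold change -0.06, 2 at an unadjusted p under 0.05), none of 47 other mitotic genes (-0.03, 1 at an unadjusted p under 0.05) and none of 20 DNA repair genes (-0.25, 3 at an unadjusted p under 0.05). Nor was any of the 23 tested of 32 listed histone genes (0.46, 4 at an unadjusted p under 0.05), whose mRNAs mostly lack a poly(A) tail. The smallest adjusted p among the replication genes were 0.114 for Orc6 (-0.42) and 0.115 for Gins1 (0.64), and among the mitotic genes 0.0674 for Melk (1.12 ± 0.35). Melk had 23.5 and 9.78 CPM in KO, against 6.60, 8.33 and 7.98 CPM in WT, both KO libraries being above WT. Without KO replicate 1, the median log2 fold change was -0.41 for the other replication, -0.57 for the other mitotic and -0.55 for the repair genes. Without KO replicate 2 the medians were 0.22, 0.43 and -0.03 in the same order. For the histone genes the median log2 fold change was 0.50 without KO replicate 1 and 0.23 without KO replicate 2. Among 28 regulators of G1 and S entry, 1 was called: E2f4, an E2F that mainly represses, rose to 59.0 and 58.5 CPM in KO, against 43.2, 48.0 and 46.4 CPM in WT (0.37 ± 0.10, adjusted p = 0.0400).

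Inhibitors of the cell cycle and targets of p53 formed the 1 related list with many calls, 8 of 21 higher and 2 lower in KO, with a median log2 fold change of 0.44. Over all genes tested, 11.5% were called higher and 8.99% lower. Sesn2, a stress-induced inhibitor of mTORC1 signalling, rose to 29.8 and 23.6 CPM in KO, against 13.9, 12.7 and 14.5 CPM in WT (0.97 ± 0.14, adjusted p = 0.00606). Phlda3, a p53 target that restrains AKT, rose to 286 and 301 CPM in KO, against 177, 185 and 161 CPM in WT (0.76 ± 0.12, adjusted p = 0.00737). Gadd45a, a stress and DNA damage gene, rose to 49.7 and 41.4 CPM in KO, against 30.1, 29.1 and 23.6 CPM in WT (0.73 ± 0.14, adjusted p = 0.0144). Sesn1, a relative of Sesn2, fell to 18.8 and 20.3 CPM in KO, against 34.8, 34.5 and 31.4 CPM in WT (-0.77 ± 0.11, adjusted p = 0.00585). In these genes the 2 KO libraries lay on the same side of WT, and the 4 calls and that of E2f4 held with either KO library alone. In a fit that shares 1 estimate of the spread over all 9 libraries, none of the 21 was called, and neither was E2f4 (adjusted p = 0.270). Few genes of any kind were called in that fit, 0.96% of all genes as higher and 0.70% as lower.

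The second comparison set KO + PBS against untreated KO corneas. In KO + PBS 12 of 23 mitotic genes rose and none fell, while 1 of 13 S-phase genes rose and none fell. Over all 18489 genes tested, 53.4% were called, 23.6% as higher and 29.7% as lower. The median log2 fold change was 0.77 for the mitotic genes and 0.33 for the S-phase genes, against -0.02 over all genes. For 13 mitotic genes all 4 KO + PBS libraries were above both KO libraries, and for none of the 36 were all below, against 26.9% above and 34% below over all genes. Only 4 of the 36 intervals lay within 2-fold, against 18.9% of all genes. Against WT, 16 mitotic genes rose and 1 fell, and no S-phase gene rose and 2 fell, where 57.1% of all genes were called, 27.1% as higher and 30% as lower. Medians against WT were 0.98 for the mitotic and 0.16 for the S-phase genes, against 0.05 over all genes. Of the 36 genes, 16 lay above and 4 below WT with no overlap, against 26.7% and 33.5% of all genes, and 6 intervals lay within 2-fold, against 22.9%. The 2 comparisons share the KO + PBS libraries, and 12 genes were called higher in both. The share over all genes called higher in both is not given.

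**Figure D3:**
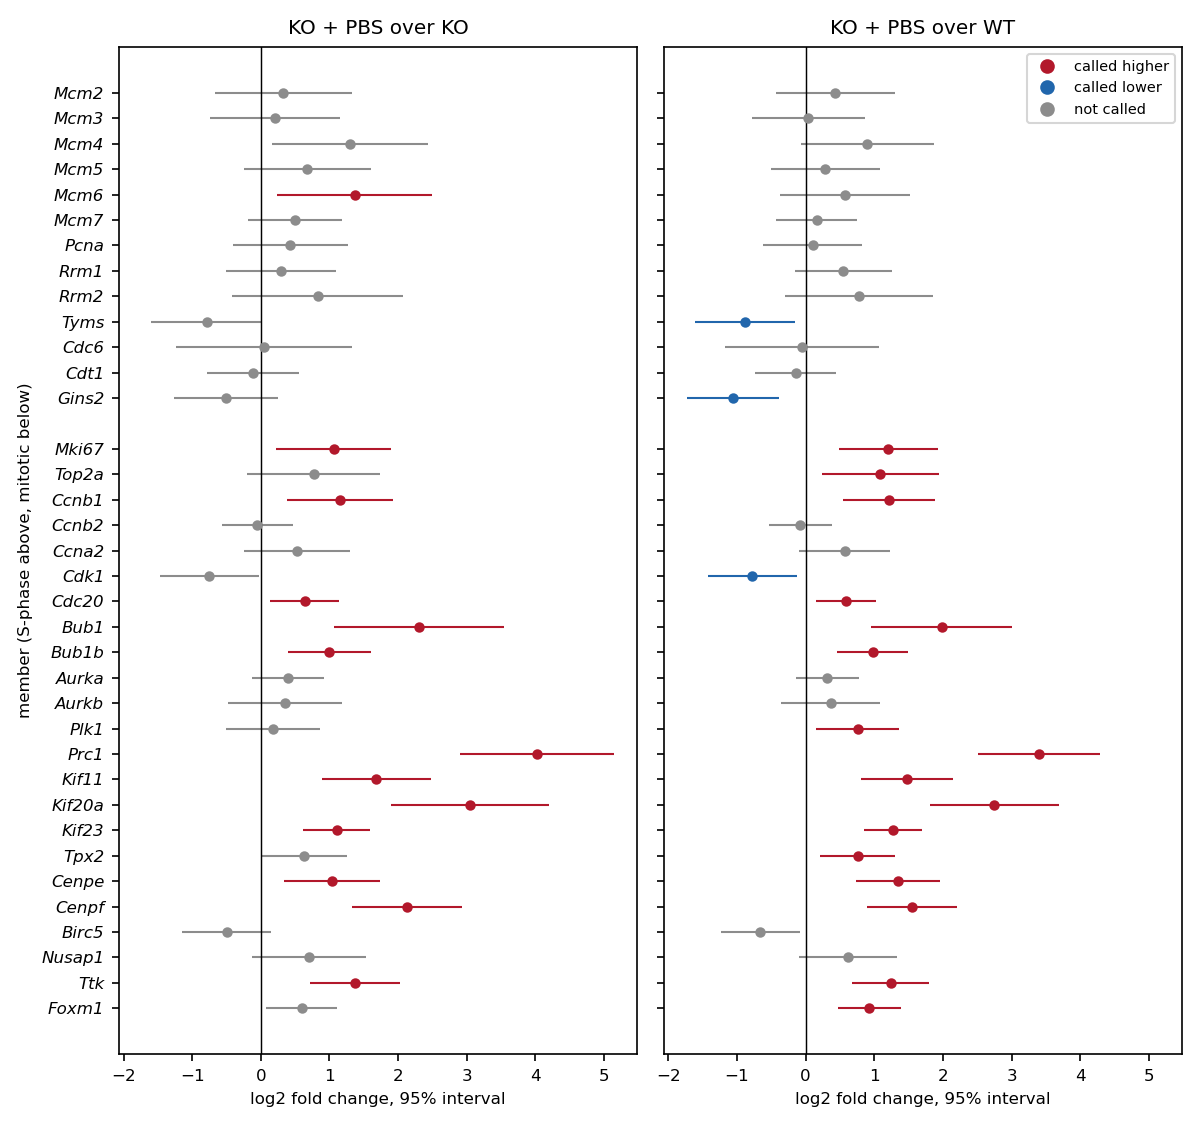
Log2 fold change with its 95% interval for each gene, KO + PBS over KO at the left and KO + PBS over WT at the right, with red for called higher, blue for called lower and grey for not called. Prc1, Kif20a, Bub1 and Cenpf stand farthest to the right in both panels, and Cdk1, Tyms and Gins2 to the left of 0.

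The 2 largest differences were in genes of the central spindle and of cytokinesis. Prc1, whose promoter with its CHR and CCAAT box is printed above, lies on chromosome 7 from 80294450 to 80316259 (GRCm38). It had 36.1, 23.9, 37.2 and 35.9 CPM in KO + PBS, against 3.31 and 0.947 CPM in KO and 2.85, 3.04 and 3.54 CPM in WT. The log2 fold change was 4.02 ± 0.49 against KO (16.2-fold, adjusted p = 0.000152) and 3.40 ± 0.39 against WT (10.6-fold, adjusted p = 9.21e-05). Even the lowest KO + PBS library was several times the highest untreated one. Kif20a, a kinesin that carries regulators to the midzone between the separating chromosomes, had 10.8, 6.11, 12.6 and 12.04 CPM in KO + PBS, against 1.92 and 0.659 CPM in KO and 1.62, 1.41 and 1.62 CPM in WT. Its log2 fold change was 3.05 ± 0.51 against KO (adjusted p = 0.000930) and 2.75 ± 0.42 against WT (adjusted p = 0.000475). Kif23, the kinesin of the centralspindlin complex, had 45.3, 30.5, 42.3 and 34.5 CPM in KO + PBS, against 17.0 and 18.4 CPM in KO and 12.7, 16.5 and 17.96 CPM in WT. It rose by 1.11 ± 0.22 on the log2 scale against KO (adjusted p = 0.00225) and by 1.28 ± 0.19 against WT (adjusted p = 0.000390). In all 3 genes no KO + PBS library overlapped an untreated one. Kif20a shares 29.3% of its exon bases with Cdc23 and Prc1 11.1% with Rccd1, both on the opposite strand.

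Genes of the kinetochore and of the spindle checkpoint, which holds the cell until every chromosome is attached, also rose. Bub1 had 9.89, 6.96, 10.7 and 11.1 CPM in KO + PBS, against 3.07 and 0.927 CPM in KO and 1.55, 2.16 and 3.60 CPM in WT. The log2 fold change was 2.30 ± 0.55 against KO (adjusted p = 0.00669) and 1.99 ± 0.45 against WT (adjusted p = 0.00486). Cenpf had 30.1, 19.3, 23.1 and 20.8 CPM in KO + PBS, against 7.34 and 3.44 CPM in KO and 6.18, 8.33 and 9.30 CPM in WT (2.13 ± 0.35 against KO, adjusted p = 0.000920; 1.55 ± 0.29 against WT, adjusted p = 0.00163). In both, the lowest KO + PBS library was above the highest untreated library. Ttk, the checkpoint kinase MPS1, had 9.17, 6.99, 8.36 and 8.90 CPM in KO + PBS, against 4.17 and 2.33 CPM in KO and 3.46, 3.56 and 3.60 CPM in WT. It rose by 1.37 ± 0.29 on the log2 scale against KO (adjusted p = 0.00367) and by 1.24 ± 0.25 against WT (adjusted p = 0.00238). Bub1b, the checkpoint protein BUBR1, had 17.4, 14.3, 19.0 and 20.7 CPM in KO + PBS, against 11.7 and 6.24 CPM in KO and 8.78, 9.11 and 9.30 CPM in WT. Its log2 fold change was 1.00 ± 0.27 against KO (adjusted p = 0.0118) and 0.98 ± 0.23 against WT (adjusted p = 0.00573). Cenpe, a kinesin that moves chromosomes to the spindle equator, had 22.2, 15.0, 18.3 and 15.3 CPM in KO + PBS, against 11.7 and 5.68 CPM in KO and 5.99, 7.85 and 6.95 CPM in WT (1.04 ± 0.31 against KO, adjusted p = 0.0195; 1.35 ± 0.27 against WT, adjusted p = 0.00238). Cdc20, which switches on the ligase that ends metaphase, had 28.9, 35.6, 35.3 and 41.9 CPM in KO + PBS, against 27.9 and 17.6 CPM in KO and 20.8, 25.5 and 24.4 CPM in WT. It had the smallest of the 12 called differences, 0.64 ± 0.22 against KO (adjusted p = 0.0359) and 0.59 ± 0.19 against WT (adjusted p = 0.0270), and its lowest KO + PBS library was close to KO replicate 1. The call against KO was lost in 9 of 20 alternatives, among them the fits without WT replicate 1 or 3, KO replicate 2, or KO + PBS replicate 3 or 4. The call against WT was lost in 8 of 20, among them the fits without any one WT library or without KO + PBS replicate 3 or 4.

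The chromosome coat, cyclin B and the spindle motor completed the 12 called genes. Mki67, on chromosome 7 from 135689784 to 135716361, had 106, 66.8, 80.2 and 68.7 CPM in KO + PBS, against 56.0 and 21.4 CPM in KO and 29.7, 34.9 and 40.1 CPM in WT. The log2 fold change was 1.06 ± 0.37 against KO (adjusted p = 0.0363) and 1.20 ± 0.32 against WT (adjusted p = 0.0103). The call against KO was lost in 8 of 20 alternatives, among them the fits without WT replicate 1 or 3, KO replicate 2, or KO + PBS replicate 1 or 3. Ccnb1 had 23.5, 20.7, 27.5 and 33.1 CPM in KO + PBS, against 16.8 and 6.96 CPM in KO and 10.02, 11.6 and 12.3 CPM in WT (1.15 ± 0.34 against KO, adjusted p = 0.0192; 1.21 ± 0.30 against WT, adjusted p = 0.00674). Kif11, the motor that pushes the spindle poles apart, had 19.6, 10.1, 20.3 and 21.7 CPM in KO + PBS, against 7.00 and 4.22 CPM in KO and 5.87, 6.60 and 6.79 CPM in WT. It rose by 1.68 ± 0.35 on the log2 scale against KO (adjusted p = 0.00327) and by 1.48 ± 0.30 against WT (adjusted p = 0.00235). None of these genes overlapped between KO + PBS and the untreated groups.

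Another 4 mitotic genes rose against WT without passing against KO. Top2a had 113, 42.1, 89.0 and 97.1 CPM in KO + PBS, against 32.3, 45.9 and 42.1 CPM in WT (1.09 ± 0.38, adjusted p = 0.0335), with replicate 2 inside the WT range. Plk1 had 14.8, 16.4, 20.1 and 20.4 CPM in KO + PBS, against 7.99, 13.02 and 10.8 CPM in WT (0.76 ± 0.27, adjusted p = 0.0371). Tpx2, which builds spindle microtubules and activates Aurora A, had 21.4, 18.1, 23.5 and 23.2 CPM in KO + PBS, against 10.6, 13.6 and 14.0 CPM in WT (0.76 ± 0.24, adjusted p = 0.0247). Foxm1 had 19.8, 18.3, 20.1 and 19.0 CPM in KO + PBS, against 16.3 and 9.39 CPM in KO and 8.82, 11.5 and 10.1 CPM in WT. For Foxm1 no library overlapped in either comparison, with 0.93 ± 0.20 against WT (adjusted p = 0.00363) and 0.59 ± 0.23 against KO (adjusted p = 0.0541). In the other 3, KO replicate 1 lay within or above the KO + PBS range. The call of Foxm1 against WT held in all 20 alternatives, while that of Top2a was lost in 9, of Plk1 in 8 and of Tpx2 in 8. For each of these 3 it was lost without WT replicate 1 or 3 and without KO + PBS replicate 3 or 4. It was also lost without WT replicate 2 for Top2a and Tpx2, without KO + PBS replicate 1 for Top2a, and with RLE scaling for Plk1.

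Cdk1, the kinase that cyclin B activates to start mitosis, ran the other way from its partner. It had 20.5, 11.2, 21.1 and 22.8 CPM in KO + PBS, against 41.7 and 22.0 CPM in KO and 27.3, 37.1 and 32.7 CPM in WT. All 4 KO + PBS libraries were below all WT libraries, and Cdk1 fell by 0.78 ± 0.29 on the log2 scale against WT (log2 fold change -0.78, adjusted p = 0.0426). Against KO the value was -0.75 ± 0.32 (adjusted p = 0.0752). The call against WT was lost with upper-quartile scaling, without any 1 of the WT libraries and without KO + PBS replicate 1 or 3. Birc5, survivin of the chromosomal passenger complex, had 15.6, 17.9, 15.6 and 17.6 CPM in KO + PBS, against 32.8 and 14.4 CPM in KO and 21.3, 29.4 and 28.2 CPM in WT, with -0.66 ± 0.25 against WT (adjusted p = 0.0511). Aurkb, the kinase of the same complex, had 12.4, 9.23, 12.7 and 12.9 CPM in KO + PBS, against 13.6 and 4.94 CPM in KO and 7.39, 10.5 and 9.49 CPM in WT, and passed in neither comparison. Ccna2, a cyclin of S phase and G2, had 31.3, 14.5, 28.1 and 31.3 CPM in KO + PBS, against 23.02 and 13.5 CPM in KO and 14.7, 20.2 and 18.2 CPM in WT. Its replicate 2 was as low as in the S-phase genes, and the other 3 libraries were above every untreated one. Ccnb2, the second B-type cyclin, had 13.8, 13.2, 14.6 and 16.8 CPM in KO + PBS, against 19.4 and 11.0 CPM in KO and 13.9, 16.3 and 16.1 CPM in WT, with the 3 groups overlapping. Aurka, the kinase of the spindle poles, had 10.9, 10.2, 11.8 and 13.4 CPM in KO + PBS, against 11.0 and 6.63 CPM in KO and 9.23, 9.87 and 8.71 CPM in WT. Nusap1, which stabilises spindle microtubules, had 18.4, 11.3, 18.6 and 21.5 CPM in KO + PBS, against 15.4 and 6.22 CPM in KO and 10.3, 11.9 and 11.9 CPM in WT. These 4 passed in neither comparison, with estimates from -0.05 (Ccnb2) to 0.70 (Nusap1) against KO and from -0.08 (Ccnb2) to 0.62 (Nusap1) against WT.

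The KO libraries bore on the mitotic estimates. Without KO replicate 2 the median log2 fold change of the mitotic genes against KO was 0.44, with Cdk1 at -1.05 and Birc5 at -0.88. Without KO replicate 1 the median was 1.57, against 0.77 with both KO libraries. These fits hold 1 KO library, which is assumed to vary like the libraries of the other groups. Bub1, Prc1, Kif11, Kif20a, Kif23, Cenpf and Ttk lay between 1.09 (Ttk) and 3.42 (Prc1) without KO replicate 2. Without KO replicate 1 they lay between 1.13 (Kif23) and 5.21 (Prc1).

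Markers of other cell types moved alongside. Against KO, 7 of 8 corneal endothelial, 6 of 6 lens, 6 of 7 retina and 5 of 10 stromal markers rose in KO + PBS and none fell. None of 12 T cell markers was called, 4 of 5 neutrophil and 3 of 4 gland markers fell, and 1 of 10 epithelial markers rose and 4 fell. Against WT, 4 of 8 corneal endothelial, 6 of 6 lens and 7 of 12 T cell markers rose and none fell, none of 7 retina markers was called, 7 of 10 stromal, 2 of 5 neutrophil and 2 of 4 gland markers fell and none rose, and 2 of 10 epithelial markers rose and 4 fell. The stromal markers thus stood on opposite sides in the comparisons with KO and with WT. The T cell sum was 5.61, 9.80, 9.76 and 80.9 CPM in KO + PBS, against 44.5 and 27.0 CPM in KO and 2.70 to 4.72 CPM in WT. The B and plasma cell sum was 3.45, 14.2, 5.37 and 189 CPM in KO + PBS, against 34.2 and 86.3 CPM in KO and 8.19 to 13.9 CPM in WT. KO + PBS replicate 4 had the highest sum of its group in both, and replicate 1 the lowest. The summed mitotic level was 651 CPM in replicate 1 and 621 CPM in replicate 4. Replicate 4 was the highest of the 4 libraries in 12 of 23 mitotic genes, and replicate 1 in 6. In S phase, replicate 1 was the highest in 12 genes and replicate 3 in the remaining gene. The shares over all genes are not given for these counts, and whether they are unusual was not tested. The neutrophil sum was 0.568 to 7.59 CPM in KO + PBS, against 123 and 27.7 CPM in KO and 6.11 to 13.6 CPM in WT, with 2 to 5 of the 8 neutrophil markers at 0 counts in a KO + PBS library. The retina sum was 34.9, 316, 1181 and 914 CPM in KO + PBS, against 14.0 and 28.6 CPM in KO and 372, 41.0 and 143 CPM in WT. The part of lymphocyte, neutrophil, stromal, endothelial, lens, retina or gland RNA in the mitotic levels was not tested.

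In the S-phase genes, 1 library of the KO + PBS group stood apart. Mcm6 had 88.6, 22.2, 79.7 and 76.6 CPM in KO + PBS, against 32.9 and 19.1 CPM in KO and 38.1, 51.1 and 45.6 CPM in WT. Replicates 1, 3 and 4 were above every untreated library and replicate 2 lay between the KO libraries. Mcm6 was the 1 S-phase gene called against KO (1.36 ± 0.50, adjusted p = 0.0452), and that call was lost with RLE scaling and on leaving out any library other than KO + PBS replicate 2. Mcm4 had 69.5, 17.8, 58.8 and 57.6 CPM in KO + PBS, against 27.0 and 14.6 CPM in KO and 21.1, 30.8 and 29.96 CPM in WT (1.30 ± 0.50 against KO, adjusted p = 0.0555). Pcna had 110, 44.2, 108 and 106 CPM in KO + PBS, against 85.7 and 51.3 CPM in KO and 74.5, 95.4 and 88.3 CPM in WT (0.43 ± 0.37 against KO, adjusted p = 0.354). Rrm2, the small subunit of ribonucleotide reductase, had 75.2, 16.8, 66.1 and 62.9 CPM in KO + PBS, against 43.1 and 19.4 CPM in KO and 25.0, 35.4 and 36.4 CPM in WT (0.83 ± 0.55 against KO, adjusted p = 0.233). In all 4 genes replicates 1, 3 and 4 were high and close together and replicate 2 was low.

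The same shape was seen in the other subunits of the MCM ring. Mcm2 had 74.5, 18.5, 58.9 and 58.6 CPM in KO + PBS, against 43.4 and 40.4 CPM in KO and 33.8, 45.2 and 38.0 CPM in WT (0.33 ± 0.44 against KO, adjusted p = 0.553). Mcm5 had 79.4, 27.1, 71.0 and 73.5 CPM in KO + PBS, against 48.5 and 30.1 CPM in KO and 41.9, 61.6 and 50.8 CPM in WT (0.68 ± 0.41 against KO, adjusted p = 0.191). In both, replicate 2 was below every untreated library while the other 3 were above all of them. Mcm7 had 50.9, 25.3, 50.8 and 49.1 CPM in KO + PBS, against 36.5 and 25.9 CPM in KO and 32.2, 45.8 and 40.2 CPM in WT (0.50 ± 0.30 against KO, adjusted p = 0.194). Mcm3 had 61.3, 17.9, 50.1 and 52.3 CPM in KO + PBS, against 44.7 and 34.2 CPM in KO and 34.6, 52.9 and 45.3 CPM in WT (0.20 ± 0.42 against KO, adjusted p = 0.705). For Mcm3 only replicate 1 was above all untreated libraries. Rrm1 had 70.5, 28.2, 66.8 and 65.1 CPM in KO + PBS, against 58.2 and 35.9 CPM in KO and 34.1, 43.6 and 40.4 CPM in WT (0.29 ± 0.36 against KO, adjusted p = 0.513).

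Replicate 2 was the lowest of the 4 KO + PBS libraries in 13 of 13 S-phase genes and in 20 of 23 mitotic genes, against 35.5% of all genes. Its S-phase levels were 25.4% (Rrm2) to 61.4% (Cdt1) of the median of the other 3 libraries, with a median log2 ratio of -1.44. Its mitotic levels were 43.4% (Top2a) to 115% (Birc5), with a median log2 ratio of -0.41, and the ratio over all genes was -0.10. The same library held 6.13% mitochondrial counts, against 0.797 to 0.924% in the other 3. Its stromal marker sum was 7980 CPM, against 1483 to 4312 CPM in the other 3, its corneal endothelial sum 2560 CPM, against 709 to 1380 CPM, its lens sum 4841 CPM, against 287 to 1637 CPM, and its epithelial sum 27912 CPM, against 46257 to 58025 CPM. The part of these in the S-phase levels was not tested. Without replicate 2, 8 S-phase genes rose against KO (Mcm2, Mcm4, Mcm5, Mcm6, Mcm7, Pcna, Rrm1 and Rrm2), with 27.9% of all genes called higher, and 6 rose against WT (Mcm2, Mcm4, Mcm5, Mcm6, Rrm1 and Rrm2), with 30.8% of all genes called higher. The mitotic counts were then 16 higher against KO and 18 higher and 1 lower against WT. All 13 genes that rose against KO and all 16 that rose against WT with replicate 2 included were still called higher without it. Leaving it out also raised the number of genes called higher over the whole table, from 4370 to 5167 against KO and from 5002 to 5717 against WT. The share of all called genes that kept their call is not given.

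Summed over the class, the S-phase genes gave 741, 246, 662 and 657 CPM in KO + PBS, 504 and 320 CPM in KO, and 397, 548 and 493 CPM in WT. The mitotic genes gave 651, 439, 610 and 621 CPM in KO + PBS, 451 and 227 CPM in KO, and 273, 350 and 342 CPM in WT. The group means were 576 ± 224 CPM in KO + PBS (SD, n = 4), 412 ± 131 CPM in KO (n = 2) and 479 ± 76.6 CPM in WT (n = 3) for S phase, and 580 ± 95.8 CPM in KO + PBS, 339 ± 158 CPM in KO and 322 ± 42.0 CPM in WT for mitosis. The mitotic sums of KO + PBS were all above those of WT, and 3 of 4 were above both KO libraries, with the 439 CPM of replicate 2 just under KO replicate 1. The ratio of the S-phase to the mitotic sum was 1.14, 0.560, 1.09 and 1.06 in KO + PBS, 1.12 and 1.41 in KO, and 1.45, 1.57 and 1.44 in WT. Every KO + PBS and KO library was below every WT library in this ratio, and KO + PBS replicate 2 was the lowest. Without TMM factors the mitotic sums were 674 to 827 CPM in KO + PBS, 371 and 161 CPM in KO, and 225 to 292 CPM in WT. All KO + PBS libraries then lay above all KO and WT libraries, while KO and WT overlapped. The S-phase sums without TMM factors were 851, 378, 875 and 875 CPM in KO + PBS, 415 and 226 CPM in KO, and 327, 428 and 422 CPM in WT. KO + PBS replicate 2 then lay inside the WT range. The factors, which lower CPM where they are high, were 1.15, 1.54, 1.32 and 1.33 in KO + PBS, 0.823 and 0.709 in KO, and 0.823, 0.782 and 0.856 in WT.

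**Figure D4:**
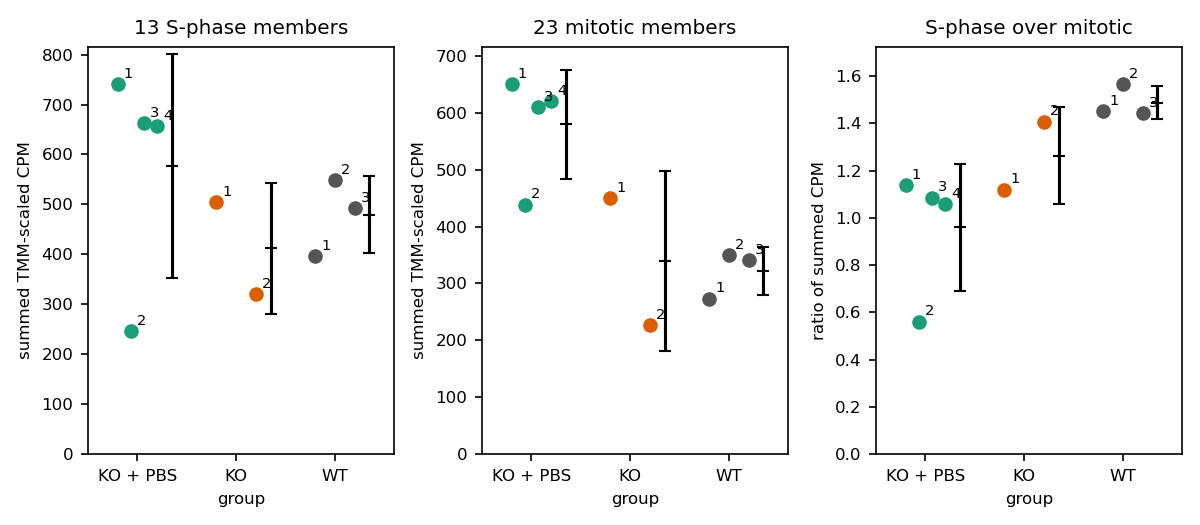
Summed TMM-scaled CPM of the 13 S-phase genes, of the 23 mitotic genes, and the ratio of the sums, per library, in KO + PBS, KO and WT from left to right. Points are libraries with their replicate number, and the dash and bar give the group's mean and SD. KO + PBS replicate 2 is the lowest point of its group in each panel, at 246 CPM, 439 CPM and a ratio of 0.560.

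The other 5 S-phase genes were not called higher without replicate 2 either. Tyms had 20.5, 8.92, 21.3 and 17.9 CPM in KO + PBS, against 39.3 and 20.0 CPM in KO and 27.0, 35.5 and 32.5 CPM in WT. All KO + PBS libraries were below all WT libraries, and Tyms fell against WT (log2 fold change -0.89 ± 0.32, adjusted p = 0.0398), a call lost with upper-quartile scaling, without any 1 of the WT libraries and without KO + PBS replicate 4. Gins2 had 11.6, 4.86, 10.2 and 10.4 CPM in KO + PBS, against 16.4 and 10.1 CPM in KO and 17.7, 21.7 and 18.3 CPM in WT. It too lay below WT in every library and fell against WT (-1.05 ± 0.30, adjusted p = 0.0137), a call lost without WT replicate 2. Cdt1 had 21.9, 12.5, 14.5 and 20.3 CPM in KO + PBS, against 21.9 and 15.6 CPM in KO and 13.5, 23.1 and 20.7 CPM in WT, and Cdc6 7.16, 1.65, 5.45 and 5.89 CPM in KO + PBS, against 6.76 and 3.01 CPM in KO and 3.39, 5.99 and 6.30 CPM in WT. Both loaders overlapped between the groups. Against KO, the estimates of the 13 S-phase genes ran from -0.79 (Tyms) to 1.36 (Mcm6).

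Exon length, taken as all annotated exon bases of a gene merged and not as the length of 1 transcript, ran with the PBS comparisons. Across all 18135 genes with a known exon length, Spearman's rho between that length and the log2 fold change was 0.54 for KO + PBS over KO and 0.54 over WT, and across 17657 genes it was 0.11 for KO over WT. Across the 36 genes rho was 0.34, 0.43 and 0.14 in the same order, given as a description since genes of a library share its depth and preparation. Of the 18 genes longer than the median exon length of 4346 bases, 9 rose against KO, and of the 18 shorter ones 4 did. None of either set fell against KO. Against WT 11 of the longer and 5 of the shorter rose, and 2 of the longer and 1 of the shorter fell. The shares of long and short genes called over the whole table are not given for this split. The part of length in the calls was not tested.

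**Figure D5:**
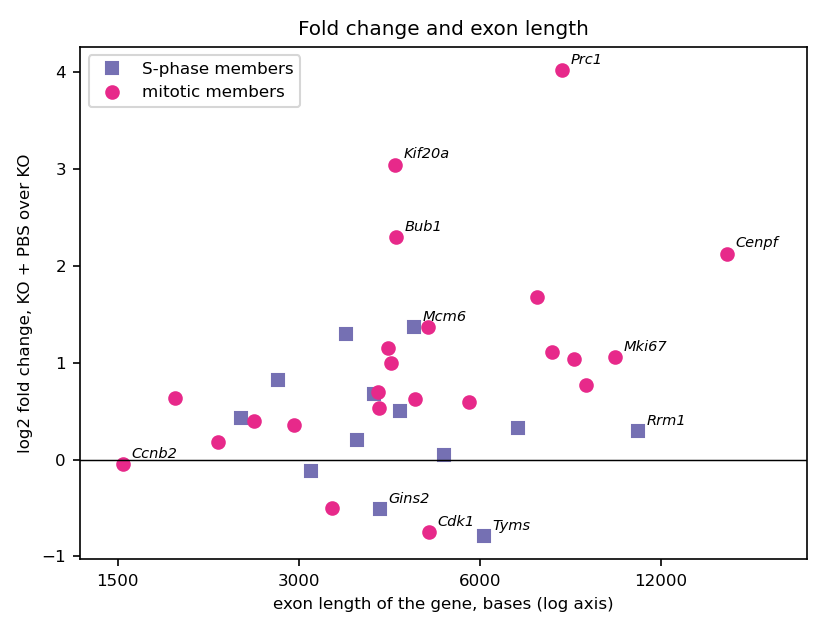
Log2 fold change of KO + PBS over KO against the exon length of each gene, in bases on a log axis, with squares for S-phase and circles for mitotic genes. Prc1 stands highest at 4.02, and Tyms and Cdk1 lowest at -0.79 and -0.75.

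Levels per length in WT show how the set is built up. Pcna was the most abundant of the 36 per kilobase of exon, at 35.9 ± 4.44 CPM per kb (SD, n = 3), and Kif20a the least, at 0.357 CPM per kb. The median was 7.60 CPM per kb for the S-phase genes and 2.73 CPM per kb for the mitotic genes. Prc1, at 0.382 CPM per kb, and then Cenpf, at 0.514 CPM per kb, stood just above it, followed by Bub1 at 0.559 CPM per kb. These 4 genes, the least abundant per kilobase in WT, are also the 4 with the largest log2 fold changes of KO + PBS over KO and over WT. By mean CPM alone Cenpf, at 7.94 CPM in WT, stood above Ttk (3.54 CPM), Cdc6 (5.23 CPM), Kif11 (6.42 CPM) and Cenpe (6.93 CPM). The rankings are not independent. The WT level is the denominator of the fold change over WT, and exon length, which divides the level, ran with both fold changes over all genes.

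Related lists outside the 36 were uneven in KO + PBS too. Against KO, 19 of 47 other mitotic genes rose and 1 fell (median log2 fold change 0.74), 11 of 20 DNA repair genes rose and none fell (1.09), and 15 of 28 regulators of G1 and S entry rose and 4 fell (0.96). Of 34 other replication genes, 5 rose and 7 fell (-0.10), and of 21 cell cycle inhibitors and p53 targets, 5 rose and 7 fell (-0.33). Of 22 histone genes, 1 rose and 14 fell, among them Hist1h4b, with 0 counts in every KO + PBS library. Against WT the counts were 25 and 2, 7 and none, 15 and 3, 7 and 6, 7 and 8, and 1 and 14 in the same order. Over all genes tested, 23.6% rose and 29.7% fell against KO, and 27.1% rose and 30% fell against WT. Single libraries moved several of these values against KO. Without KO + PBS replicate 2, 11 of 35 replication genes rose and 7 fell, where 27.9% of all genes rose and 35.4% fell. Without KO replicate 1 the median log2 fold changes were 0.39 for the replication, 1.51 for the mitotic, 1.39 for the repair and 1.29 for the regulator genes. For the inhibitors and p53 targets the median was -0.007. Without KO replicate 2 the medians were -0.17, 0.48, 0.99, 0.86 and -0.16 in the same order.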

How the data were processed

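RNAaqueous reagents, DNase and the NEBNext Ultra kit were used for RNA and libraries, per the labels' protocols. Reads went through fastp, STAR and featureCounts on mm10, per the submitters' processing notes; versions, annotation, strand setting and treatment of multi-mapping reads are not given in the sources used. The deposited table holds the authors' whole-number read counts per gene, not normalized. Of 34165 names, 23 read as dates (0.0318 to 0.140% of the counts per library) and did not enter totals or tests. Totals ranged from 22944576 to 104518572 counts, and a count of 0 was taken to allow 3 counts, or 0.0287 to 0.131 CPM, for counting error only. Gene positions came from GENCODE M21 (GRCm38), matched for 31428 names, 976 of them by an older symbol.

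Counts were tested with edgeR 4.0.16 (limma 3.58.1, R 4.3.3): filterByExpr, TMM, robust quasi-likelihood fits and Benjamini-Hochberg adjustment over all genes tested. KO against WT used the 5 untreated libraries (18006 genes), and the comparisons with KO + PBS used 1 model over 9 libraries (18489 genes). The SE is the log2 fold change over the square root of F. The steps were tested on simulated counts. The labels call replicates biological without naming animals, so the p-values cover only the spread among these samples, which may be technical. No pair of columns of a group repeated the other (chi-square 15.4 to 249 per degree of freedom).

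The 36 genes, the other lists and the rule for named genes were chosen with earlier results of these data known. Named are all 36, in detail those called or, with none called, the 3 highest and 3 lowest of each class, plus from each other list up to 4 genes with the smallest adjusted p in KO against WT, and Aire. Alternatives were RLE and upper-quartile scaling, other filters, DESeq2 1.42.0, glmTreat against a fold of 1.5, other sets of libraries in the fit, non-robust dispersion, protein-coding genes only, the replicate number as a block, and leaving out each library. Class sums without TMM, the split by exon length, and list counts and medians without single libraries or over 9 libraries were added after seeing the data.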

Additional observations from a re-analysis of the deposited data

Results flagged for a closer look

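In a group of 4, a library was marked where its gap to the nearest other was more of the group's range than Dixon's 95% critical value allows, which chance alone exceeds in about 1 in 20 groups. Of 39 values examined over the 4 KO + PBS libraries (36 genes, both class sums and their ratio), 8 were marked, and in each replicate 2 was the lowest. In S phase, Mcm5 stood at 27.1 CPM in replicate 2 (71.0 to 79.4 CPM in the other 3), Mcm7 at 25.3 CPM (49.1 to 50.9 CPM), Pcna at 44.2 CPM (106 to 110 CPM) and Rrm1 at 28.2 CPM (65.1 to 70.5 CPM). In mitosis, Aurkb stood at 9.23 CPM (12.4 to 12.9 CPM) and Prc1 at 23.9 CPM (35.9 to 37.2 CPM). The S-phase sum was 246 CPM (657 to 741 CPM) and the ratio of S-phase to mitotic sum 0.560 (1.06 to 1.14). These 8 values come from 1 library and are not independent of each other.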

How the results depend on the processing

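Between KO and WT, 3681 genes were called over the whole table, and 308 in a fit to all 9 libraries, 1004 with glmTreat, 1208 with the replicate block and 1305 to 6290 on leaving out single libraries. S-phase genes called lower numbered 0, 1 with DESeq2 and 0 to 8 on leaving out single libraries; mitotic genes called lower numbered 0 to 13, S-phase genes called higher 0 to 1 and mitotic genes called higher 0 to 7. With either KO library left out, Mki67 ranged from -0.72 (without replicate 1) to 0.68 (without replicate 2), Ccnb1 from -0.71 to 0.57 and Aurkb from -0.91 to 0.57. For KO + PBS over KO, 1 S-phase gene was called higher, 2 with upper-quartile scaling or DESeq2, 0 with RLE, glmTreat, a fit to the groups compared, the block or protein-coding genes only, and 0 to 8 on leaving out single libraries. Of mitotic genes 12 were called higher, 7 with glmTreat and 7 to 18 on leaving out single libraries; 0 were called lower, 1 with protein-coding genes only (Cdk1) and 0 to 2 on leaving out single libraries. For KO + PBS over WT, 1 mitotic gene was called lower, 2 with RLE, no filter, DESeq2, a fit to the groups compared or protein-coding genes only, 0 with upper-quartile scaling or glmTreat, and 0 to 2 on leaving out single libraries. Mitotic genes called higher numbered 16, 12 with glmTreat, the block or protein-coding genes only, and 12 to 18 on leaving out single libraries. S-phase genes called lower numbered 2, 1 with upper-quartile scaling, 0 with glmTreat and 0 to 2 on leaving out single libraries, and those called higher 0 to 6. Upper-quartile scaling shifted the median over all genes by 0.19 (KO + PBS over KO) and 0.12 (over WT), and the share of calls that were higher to 51.9% against 44.3% with TMM, and to 52.7% against 47.4%; for KO over WT it was 45.4% against 56.0%. The cause of these changes was not tested, beyond the fewer libraries of each left-out fit.

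Replicate numbers did not pair the samples: deviations of same-numbered libraries correlated at -0.319 to 0.0966. With the replicate block, KO against WT had 0 of 36 genes called, KO + PBS over KO 10 mitotic genes and no S-phase gene higher, and KO + PBS over WT 12 mitotic genes higher and 1 lower and 2 S-phase genes lower. Of the results for single genes under all alternatives, 546, 656 and 655 kept their side of the threshold for KO over WT, KO + PBS over KO and KO + PBS over WT, 48, 19 and 17 of them with an estimate of the opposite sign; 0, 37 and 48 lost the call, and 30, 27 and 17 gained one, 3 of the 30 with the opposite sign. Depth limits chiefly the genes with the lowest counts, of which Kif20a had 32 counts in KO replicate 2.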
